A study of Homo sapiens with 4 samples.

Results

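The small nucleolar RNA (snoRNA) host genes were taken as every row of the deposited table whose mapped symbol is SNHG followed by a number, together with GAS5, ZFAS1 and EPB41L4A-AS1. The rule used names only and found 31 genes of 67062 rows. Of these, 2 lie on chromosome 6 (SNHG5 and SNHG32) and 29 on other chromosomes. Poly(A) RNA was sequenced from OCI-AML3, an established human acute myeloid leukaemia line carrying the cytoplasmic NPM1 mutation (NPM1c+). The cells had received a retroviral pMSCV-PIG vector, either with the long noncoding RNA called LONA as insert (PIG-LONA) or empty, as negative control (PIG-EMPTY). All cells of both groups also carry the puromycin and GFP cassette of the vector, which has its own PGK promoter, and were sorted as GFP-positive. Each vector was used in 2 independent transductions, giving 2 libraries a group and 4 in all, so the spread between libraries covers separate transductions of 1 line and no other line. No row was matched to LONA by name, so its level was not analysed here.

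A snoRNA host gene is transcribed by RNA polymerase II and spliced, and its introns release snoRNAs, which guide chemical marks on ribosomal RNA. Box C/D snoRNAs guide 2′-O-methylation and box H/ACA snoRNAs guide pseudouridylation, while scaRNAs do the same for spliceosomal RNA in Cajal bodies. The spliced remainder of many hosts is short-lived and is removed by nonsense-mediated decay as it is translated. Several host RNAs begin, like ribosomal protein mRNAs, with a 5′ terminal oligopyrimidine (TOP) tract, which ties their translation and decay to growth signals. The poly(A) libraries read the spliced host, not the amount of mature snoRNA.

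The starts of the chromosome 6 hosts are shown because both carry such a tract and because the comparison of these genes with the other hosts is the main question here. Each line gives 30 bases before and 20 bases from the RefSeq start (GRCh38.p14), 5′ to 3′ on the gene's strand. Capitals mark the run that begins at the start with C and goes on with at least 4 further pyrimidines (C or T). ZFAS1, SNHG12 and SNHG19, on other chromosomes, are given for comparison.
SNHG32, chr6:31834886-31834935, plus strand: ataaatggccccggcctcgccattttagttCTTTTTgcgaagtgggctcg
SNHG5, chr6:85678714-85678763, minus strand: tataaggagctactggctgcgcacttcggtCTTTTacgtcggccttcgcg
ZFAS1, chr20:49278612-49278661, plus strand: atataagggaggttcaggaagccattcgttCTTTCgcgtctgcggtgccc
SNHG12, chr1:28581854-28581903, minus strand: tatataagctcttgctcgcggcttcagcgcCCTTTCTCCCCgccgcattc
SNHG19, chr16:2155339-2155388, minus strand: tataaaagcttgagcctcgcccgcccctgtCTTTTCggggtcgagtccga

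Such a start was found in 7 of the 27 members matched in the RefSeq promoter table, 25.9%, against 1429 of 35116 promoters, 4.07%. The other members with it were SNHG4 and SNHG18. A match is a run of letters at an annotated start and was not tested as a TOP element. The 6 tract-bearing members that could be tested had a median log2 fold change (PIG-LONA over PIG-EMPTY) of 0.11, with values from 0.04 to 0.31. Of these, 2 (SNHG5 and SNHG32) were called higher, against 2.93% of all tested genes. Both lie on chromosome 6, where 28.3% of tested genes were called higher. SNHG12, ZFAS1, SNHG4 and SNHG19, on other chromosomes, had values of 0.15, 0.07, 0.07 and 0.04, and none was called. The 15 tested members with a start sequence and no tract had a median of 0.03 and none was called. Whether the tract goes with a change was not tested. SNHG6, one of the called hosts, was among those with no entry in the promoter table.

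Of the snoRNAs that the chromosome 6 hosts release, 3 are printed here, and SNORD50A of SNHG5 is named only. The printed ones are all of the box C/D class, and capitals mark the letters TGATGA of the C box and CTGA of the D box (GENCODE 29 positions, GRCh38). SNORD104, from the intron of SNHG25, is added because its row held more counts than its host.
SNORD48, in SNHG32, chr6:31835263-31835326, plus strand: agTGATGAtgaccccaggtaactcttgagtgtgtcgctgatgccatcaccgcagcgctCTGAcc
SNORD52, in SNHG32, chr6:31837076-31837142, plus strand: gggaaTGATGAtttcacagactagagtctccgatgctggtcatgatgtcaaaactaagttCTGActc
SNORD50B, in SNHG5, chr6:85677589-85677658, minus strand: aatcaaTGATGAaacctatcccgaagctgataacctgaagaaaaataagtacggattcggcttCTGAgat
SNORD104, in SNHG25, chr17:64146083-64146152, plus strand: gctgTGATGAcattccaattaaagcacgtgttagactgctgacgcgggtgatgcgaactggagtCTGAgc

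The annotation placed 147 snoRNA or scaRNA names inside the 31 hosts. SNHG14, the host in the imprinted Prader-Willi region, holds 83 of them and GAS5 holds 11. By what they carry, 12 hosts hold box C/D snoRNAs alone, 10 hold box H/ACA snoRNAs alone, 3 (GAS5, SNHG12 and SNHG25) hold both, 4 hold a scaRNA, and SNHG27 and SNHG28 hold none in the annotation used.

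Library totals ran from 29819572 to 38358442 counts, and a level in CPM is a count scaled to a common library total by TMM. Of the 31 hosts, 25 passed the filter on low counts and 6 did not. Of the 10 myeloid markers, 10 were detected, and 3 were lower in PIG-LONA (ITGAM, LYZ and SPI1), where 3.51% of all tested genes were called lower. All 10 had a log2 fold change below 0, with a median of -0.09. ITGAM had the largest change, -0.89 ± 0.11 (SE; adjusted p = 4.01e-05, edgeR). It was also called lower by the DESeq2 Wald test, by limma-voom and with no low-count filter. The SPI1 call ended without either PIG-EMPTY library (adjusted p = 0.220 and 0.461, edgeR) and with the DESeq2 Wald test (adjusted p = 0.0992). The LYZ call ended with that test (adjusted p = 0.261), and its log2 fold change of -0.70 was -0.36 without replicate 1 of PIG-EMPTY. The SPI1 and LYZ calls also ended with no low-count filter (adjusted p = 0.158 and 0.0937, edgeR). The summed level of the 10 markers was 1455 and 1414 CPM in PIG-EMPTY against 1364 and 1337 CPM in PIG-LONA. Markers of other cell types summed to 26.8 to 33.3 CPM per library, nearly all from PECAM1, an endothelial marker that some blood cells also carry, while CD3D, CD3E, MS4A1, EPCAM and HBB were at 0. PECAM1 was lower in PIG-LONA, at 32.3 and 33.0 CPM in PIG-EMPTY against 26.4 and 26.2 CPM in PIG-LONA, with a log2 fold change of -0.31 ± 0.06 (SE; adjusted p = 0.0019, edgeR). The part of these markers in the results below was not tested. In bulk RNA, fewer cells of a type and less RNA per cell cannot be told apart.

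The hosts together took 0.240% and 0.237% of all counts in PIG-EMPTY against 0.250% and 0.242% in PIG-LONA. Their summed level was 2406 and 2363 CPM in PIG-EMPTY against 2524 and 2415 CPM in PIG-LONA. The groups did not overlap in this sum, but the lower PIG-LONA library was closer to the higher PIG-EMPTY library than to its own replicate. Per kilobase of exon, levels spanned a range from SNHG29, at 183 CPM per kb in PIG-EMPTY, to SNHG21 at 0.423. After SNHG29, the host of SNORD49A, SNORD49B and SNORD65, came GAS5 at 91.6, SNHG6 at 78.2, SNHG8 at 63.6, SNHG16 at 58.3 and SNHG5 at 48.6 CPM per kb. SNHG1, SNHG19 and SNHG3 followed at 34.3, 33.7 and 33.0, values whose ranges over the PIG-EMPTY libraries overlapped. SNHG32, at 14.7 CPM per kb, ranked 14 of 25.

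**Figure D1:**
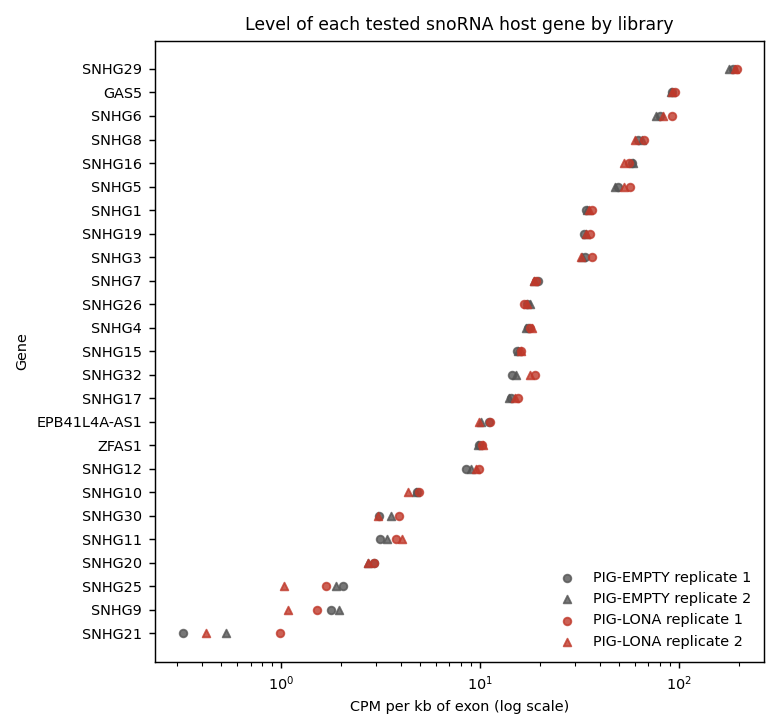
Level of each of the 25 tested snoRNA host genes in every library, as CPM per kb of exon on a log axis, with grey for PIG-EMPTY, red for PIG-LONA, circles for replicate 1 and triangles for replicate 2. SNHG29 and GAS5 sit highest, and the libraries of both groups nearly coincide for most hosts, with wide scatter only for SNHG25, SNHG9 and SNHG21 at the bottom.

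The first comparison asked which hosts differed between PIG-LONA and PIG-EMPTY. SNHG32, SNHG5 and SNHG6 passed the test upward in PIG-LONA and none passed it downward. The call is an adjusted p under 0.05 from the quasi-likelihood test of edgeR, corrected by Benjamini-Hochberg over all 15918 tested genes. These 3 of 25 stand beside 2.93% of all tested genes called higher, 3.51% called lower and 6.44% called in either direction. Among genes at or above the PIG-EMPTY level of SNHG32, 5.00% were called higher. The changes were small, between 1.12-fold and 1.24-fold. Over the 25 tested hosts the median log2 fold change was 0.05, against 0.001 for all tested genes, with values from -0.57 to 0.64; 16 lay above 0 and 9 below. At an unadjusted p under 0.05, 7 hosts were higher and 1 (SNHG16) was lower, against 9.23% and 9.43% of all tested genes, while the DESeq2 Wald test called 1 higher (1.79% of all genes with an adjusted p) and 0 lower (2.08%). With limma-voom 3 were higher (2.85% of all genes) and 0 lower (3.41%).

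SNHG32 (ENSG00000204387, chr6:31834608-31839766, plus strand) hosts SNORD48 and SNORD52 and lies in the major histocompatibility region. GENCODE 29 lists it as C6orf48, a protein-coding gene. Its level was 26.0 and 27.1 CPM in PIG-EMPTY against 34.0 and 32.1 CPM in PIG-LONA, from 774, 880, 1018 and 1235 counts. Both PIG-LONA libraries were above both PIG-EMPTY libraries. The means were 26.5 ± 0.778 and 33.1 ± 1.34 CPM (SD, n = 2 each), a log2 fold change of 0.31 ± 0.06 (SE; adjusted p = 0.00255, edgeR quasi-likelihood), or 1.24-fold.

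SNHG5 (ENSG00000203875, chr6:85660950-85678748, minus strand) hosts SNORD50A and SNORD50B on the long arm of the same chromosome. Its level was 138.8 and 133.9 CPM in PIG-EMPTY against 158.2 and 148.1 CPM in PIG-LONA. The groups did not overlap. Means of 136 ± 3.51 and 153 ± 7.18 CPM (SD, n = 2 each) gave a log2 fold change of 0.17 ± 0.04 (SE; adjusted p = 0.0176, edgeR quasi-likelihood), or 1.12-fold. SNHG5 lost its call when either control library was left out, with an adjusted p (edgeR) of 0.0639 without replicate 1 and 0.343 without replicate 2.

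SNHG6 (ENSG00000245910, chr8:66921684-66926398) hosts SNORD87 and was the called host outside chromosome 6. Its level was 100.1 and 94.95 CPM in PIG-EMPTY against 115.1 and 104.0 CPM in PIG-LONA, with no overlap between groups. The log2 fold change was 0.17 ± 0.05 (SE; adjusted p = 0.0437, edgeR quasi-likelihood), close to that of SNHG5. The call ended when any of 3 libraries was left out: the adjusted p (edgeR) was 0.0564 without replicate 1 of PIG-EMPTY, 0.451 without its replicate 2, and 0.111 when PIG-LONA replicate 1 was dropped, where the log2 fold change was 0.09. MCMDC2, on the opposite strand, shares 365 exon bases with SNHG6 and had a log2 fold change of -0.38 ± 0.31 (SE; adjusted p = 0.571, edgeR).

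**Figure D2:**
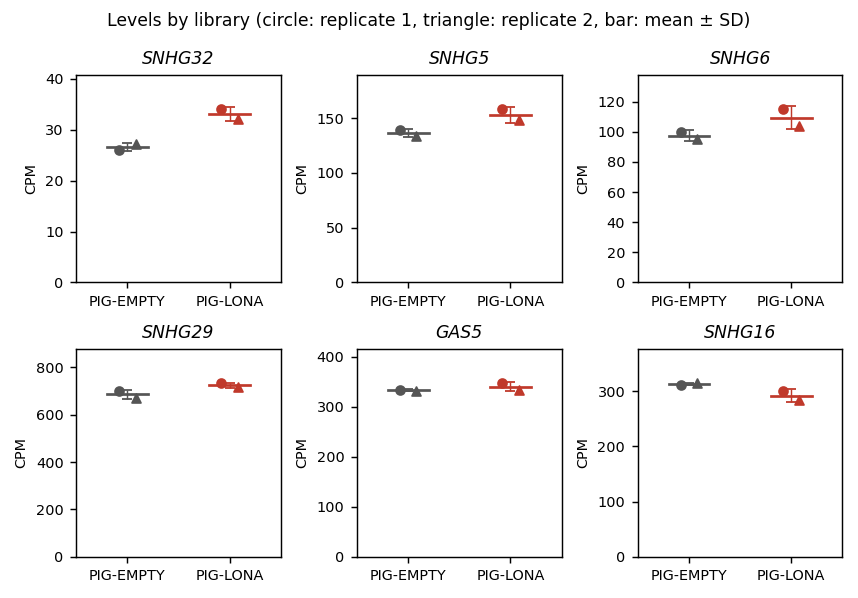
Level in CPM (axis from 0) of SNHG32, SNHG5, SNHG6, SNHG29, GAS5 and SNHG16 in each library, with circles for replicate 1, triangles for replicate 2 and bars for the mean ± SD of 2 libraries. As a ratio, SNHG32 shows the widest gap of the 6, from about 26.5 to 33.1 CPM, while GAS5 stays near 333 and 340 CPM and SNHG16 lies lower in both PIG-LONA libraries.

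The other tested hosts of box C/D snoRNAs outside chromosome 6 did not pass the test, nor did GAS5, which carries both classes. SNHG29 stood at 700 and 673 CPM in PIG-EMPTY against 732 and 715 CPM in PIG-LONA, a log2 fold change of 0.08 ± 0.03 (SE; adjusted p = 0.232, edgeR). GAS5, named for its rise in growth-arrested cells, stood at 334 and 331 CPM against 346 and 334 CPM. Its log2 fold change was 0.03, with a 95% interval from -0.04 to 0.11 and an adjusted p of 0.702 (edgeR), and 1 PIG-LONA library lay within the range of PIG-EMPTY. SNHG16, the host of the SNORD1 group, went the other way, at 311 and 314 CPM in PIG-EMPTY against 300 and 284 CPM in PIG-LONA. Its log2 fold change was -0.10 ± 0.04 (SE; adjusted p = 0.138, edgeR), although both PIG-LONA libraries were below both PIG-EMPTY libraries. SNHG16 was called lower without PIG-LONA replicate 1 (log2 fold change -0.14, adjusted p = 9.54e-05, edgeR), a fit in which 6.63% of all tested genes were called lower. SNHG1, which carries the SNORD22 and SNORD25 to SNORD31 series, had a log2 fold change of 0.06, and the SNORD12 host ZFAS1 one of 0.07. SNHG19, SNHG26 and SNHG30, each with a single box C/D snoRNA, had values of 0.04, -0.05 and 0.05. In all, 3 of the 10 tested box C/D hosts were called higher, against 2.93% of all tested genes. Of the 3, SNHG5 and SNHG32 lie on chromosome 6, where 28.3% of tested genes were called higher.

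None of the 9 tested hosts of box H/ACA snoRNAs alone was called by edgeR, DESeq2 or limma-voom, and their median log2 fold change was 0.05. With edgeR, 2.93% of all tested genes were called higher and 3.51% lower, shares at which 9 genes hold few calls or none. SNHG11 and SNHG17, neighbours on chromosome 20 that both carry snoRNAs of the SNORA71 family, had the highest values of the class and an unadjusted p of 0.0120 and 0.0246. SNHG11 stood at 8.80 and 9.51 CPM in PIG-EMPTY against 10.6 and 11.4 CPM in PIG-LONA. Its log2 fold change was 0.27 ± 0.10 (SE; adjusted p = 0.119, edgeR). SNHG17 had a log2 fold change of 0.11 ± 0.05 (SE; adjusted p = 0.180, edgeR). SNHG3, the host of SNORA73A and SNORA73B, stood at 137.5 and 132.5 CPM in PIG-EMPTY against 148.3 and 130.9 CPM in PIG-LONA, so that its PIG-LONA libraries lay on either side of PIG-EMPTY. SNHG4 had a value of 0.07, SNHG15 one of 0.06, EPB41L4A-AS1 one of -0.01 and SNHG8 one of -0.02. SNHG7, host of the SNORA17 pair, had the value nearest to 0. SNHG9 rested on 23 to 35 counts a library and had a log2 fold change of -0.55 ± 0.30 (SE; adjusted p = 0.356, edgeR).

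Of the hosts that carry both classes, SNHG12 stood at 36.2 and 38.4 CPM in PIG-EMPTY against 42.3 and 40.9 CPM in PIG-LONA. Its log2 fold change was 0.15 ± 0.05 (SE; adjusted p = 0.112, edgeR), a size close to that of SNHG6 at a lower level. SNHG25 held only 11 to 17 counts a library and had a log2 fold change of -0.57 ± 0.40 (SE; adjusted p = 0.491, edgeR). Among the scaRNA hosts, SNHG20 and SNHG10 had values of -0.01 and -0.06. SNHG21 had the highest fitted value of all hosts, 0.64 ± 0.43 (SE; adjusted p = 0.459, edgeR), from 10 and 18 counts in PIG-EMPTY against 31 and 17 in PIG-LONA. Its groups overlapped, and the 95% interval ran from -0.25 to 1.53.

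The 6 hosts under the filter held few or no reads. SNHG14 had 40 and 5 counts in PIG-EMPTY against 1 and 0 in PIG-LONA, so nearly all of its reads came from 1 control library. SNHG31 had 3 to 5 counts a library, SNHG22 had 2 and 1 in PIG-EMPTY and 0 in PIG-LONA, and SNHG27 had a single read. SNHG18 and SNHG28 were at 0 in all 4 libraries. All 2242 exon bases of SNHG28 are shared with ENSG00000256029 on the same strand, a row of 25 to 31 counts a library. Reads of these genes may not be told apart, so the 0 of SNHG28 does not show its level.

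**Figure D3:**
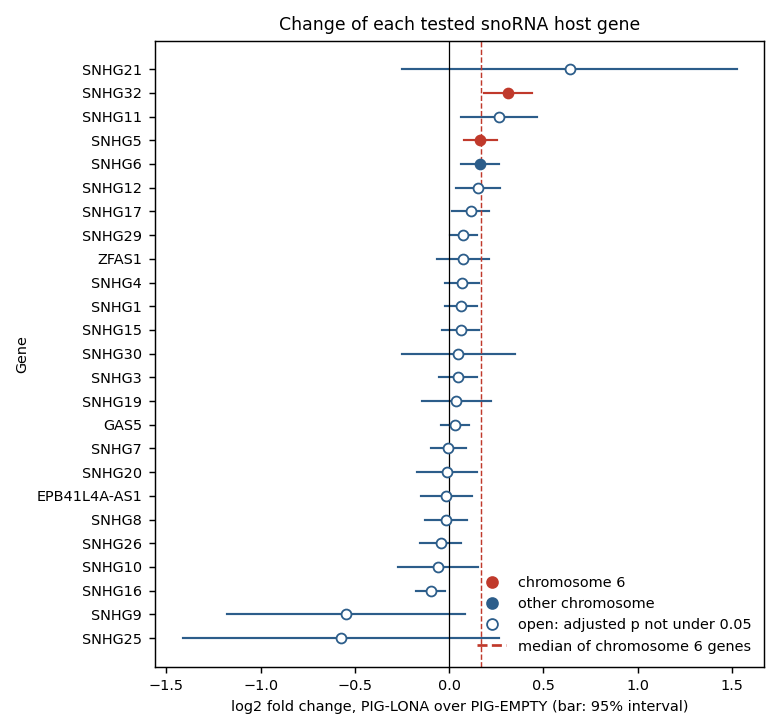
Log2 fold change (PIG-LONA over PIG-EMPTY) of each tested host with its 95% interval, red for chromosome 6 and blue for other chromosomes, with filled points for adjusted p under 0.05 and a dashed line at the median of all chromosome 6 genes. SNHG5 lies on the dashed line, SNHG32 to its right, and most other hosts have intervals that include 0.

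Both PIG-LONA libraries were above both PIG-EMPTY libraries for 11 of the 25 tested hosts and below for 3. Among all tested genes, 23.7% had the first arrangement and 24.4% the second. The PIG-LONA libraries also differed from each other in these genes. Replicate 1 was above replicate 2 for 21 of 25 hosts, with a median log2 difference of 0.08, while 49.6% of all tested genes had that order. In PIG-EMPTY, replicate 1 was above replicate 2 for 13 of 25 hosts, with a median log2 difference of 0.01. The median host difference between the PIG-LONA replicates was thus larger than the median difference between groups. Without PIG-LONA replicate 1 the median log2 fold change of the hosts was 0.007, with 13 above 0 and 12 below; without PIG-LONA replicate 2 it was 0.07, with 21 above 0 and 4 below.

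The second comparison set SNHG5 and SNHG32 beside the hosts elsewhere. The 23 tested hosts on other chromosomes had a median log2 fold change of 0.05, and 1 of them was called higher, where 1.59% of all genes on other chromosomes were called higher and 3.6% lower. SNHG5 exceeded that median by 0.12 and SNHG32 by 0.27 on the log2 scale. Of the hosts elsewhere, 2 (SNHG21 and SNHG11) lay above SNHG5 and 1 (SNHG21) above SNHG32. Restricted to the 20 hosts elsewhere with at least 100 counts in every library, values ran from -0.10 to 0.27, so SNHG32 lay above all 20. The summed level of the chromosome 6 pair was 165 and 161 CPM in PIG-EMPTY against 192 and 180 CPM in PIG-LONA, with no overlap between groups. The summed level of the tested hosts elsewhere was 2240 and 2201 CPM against 2331 and 2235 CPM, where the groups overlapped.

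Chromosome 6 as a whole was higher in PIG-LONA. Of its 799 tested genes, 28.3% were called higher and 1.75% lower, and their median log2 fold change was 0.17. In PIG-EMPTY the median of chromosome 6 genes stood at -0.06 and -0.11 (log2, relative to the mean of the 4 libraries and to the genes of other chromosomes), and in PIG-LONA at 0.08 and 0.10. SNHG5 was 0.002 below the chromosome 6 median, and 49.6% of the chromosome's tested genes lay below it. SNHG32 was 0.14 above the median, with 82.5% of the genes below it. After the chromosome 6 median was taken out of each library, SNHG5 had a log2 fold change of -0.01 ± 0.04 (SE; adjusted p = 0.970, edgeR) and SNHG32 one of 0.14 ± 0.06 (SE; adjusted p = 0.250, edgeR; unadjusted p = 0.0379). Neither chromosome 6 host was called once the shift of its chromosome was removed, and no cause of that shift was tested.

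The neighbours of the chromosome 6 hosts were read against the 28.3% of the chromosome's genes called higher. Among the 10 nearest tested genes on each side of SNHG32, 7 of 20 were called higher and 0 lower, with a median log2 fold change of 0.20, and 3 had a value above that of SNHG32. HSPA1B, an inducible heat shock protein gene 4353 bases away, had a log2 fold change of 0.32 ± 0.06 (SE; adjusted p = 0.00101, edgeR), although its reads may be split with the near-identical HSPA1A. NEU1, the lysosomal sialidase gene on the other side, had one of 0.10 (adjusted p = 0.352, edgeR). Around SNHG5, 7 of 20 neighbours were called higher and 0 lower, with a median of 0.22, and 12 had a value above that of SNHG5. SYNCRIP, an RNA-binding protein gene 17158 bases away, had a log2 fold change of 0.25 ± 0.04 (SE; adjusted p = 0.000178, edgeR). ZNF292, the nearest tested gene on the other side, lies 1474085 bases away and had one of 0.37 ± 0.06 (SE). Around SNHG6, which is not on chromosome 6, none of the 20 neighbours was called. Of all tested genes on other chromosomes, 1.59% were called higher and 3.6% lower, so 20 genes would hold few calls or none. The median of the SNHG6 neighbours was 0.003, and the nearest, SGK3 and COPS5, had log2 fold changes of -0.003 and 0.004. The 20 neighbours spanned about 0.38 Mb around SNHG32, 5.08 Mb around SNHG5 and 5.56 Mb around SNHG6, so the regions differed in size. The difference between these neighbourhoods was not tested.

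Protein-coding hosts on chromosome 6 were also higher. RPS12, a ribosomal protein gene that carries SNORA33, SNORD100 and SNORD101, rose from 716 ± 25.1 to 818 ± 49.6 CPM (SD, n = 2 each), a log2 fold change of 0.19 ± 0.04 (SE; adjusted p = 0.00411, edgeR). TCP1, a chaperonin subunit gene with SNORA20 and SNORA29, rose by 0.18 (log2; adjusted p = 0.00311, edgeR). DDX39B, an RNA helicase gene of mRNA export with SNORD84 and SNORD117, rose by 0.27 (adjusted p = 0.000353, edgeR), and PRRC2A, with SNORA38, by 0.23 (adjusted p = 0.000327, edgeR). With SNHG5 and SNHG32, all 6 tested snoRNA hosts of chromosome 6 in these classes were therefore called higher. Among chromosome 6 genes at or above the level of SNHG32, 54.6% were called higher. The calls of the 4 protein-coding hosts ended without replicate 2 of PIG-EMPTY, where the adjusted p (edgeR) was 0.190 for RPS12, 0.298 for TCP1, 0.0526 for DDX39B and 0.0609 for PRRC2A, and with the chromosome 6 median removed (adjusted p from 0.184 to 0.925, edgeR).

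**Figure D4:**
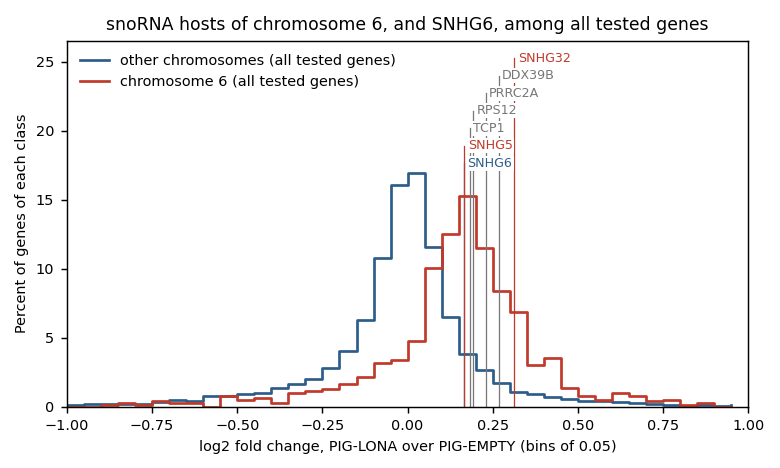
Distribution of the log2 fold change (PIG-LONA over PIG-EMPTY, bins of 0.05) over all tested genes of chromosome 6 (red) and of the other chromosomes (blue), as a percent of each class, with vertical lines at the chromosome 6 snoRNA hosts and at SNHG6. The red curve is shifted to the right by about 0.17, and the chromosome 6 hosts fall within its main body, as does SNHG6, whose gene is on another chromosome.

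Hosts of snoRNAs outside the SNHG group gave a further view of the class. Of 28 ribosomal protein hosts, RPS12 was the single one called, and the median log2 fold change was -0.01. Of 114 tested other protein-coding hosts (132 annotated), 5 were higher and 2 lower, with a median of 0.02. Over all tested genes 6.44% were called in either direction, a share that neither class exceeded, and 4 of these 8 calls are the chromosome 6 genes above. Beyond chromosome 6, POLA1 and UBAP2 were higher, by 0.17 and 0.18, and TPT1 and TMEM167A were lower; all 4 calls ended when either PIG-EMPTY library was left out. Among other noncoding hosts only 2 of 10 could be tested, and DANCR had a log2 fold change of -0.07 (adjusted p = 0.439, edgeR).

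Genes that build, trim or destroy these RNAs were read against the 6.44% of all tested genes called in either direction, a share at which lists this short hold few calls or none. At an unadjusted p under 0.05 (edgeR), 9.23% of all tested genes were higher and 9.43% lower. The medians of the 4 lists of core proteins, assembly and decay factors lay between 0.006 and 0.03 (log2). None of the 4 box C/D core proteins was called (0 at an unadjusted p under 0.05, and 0 by DESeq2 and limma-voom). NOP58, a core protein of that particle, had a log2 fold change of 0.05 (adjusted p = 0.517, edgeR) and FBL, the methyltransferase fibrillarin, one of 0.03. None of the 4 box H/ACA core proteins was called by any of the 3 tools, with 1 lower at an unadjusted p under 0.05. This was NOP10, with a log2 fold change of -0.11 (adjusted p = 0.194, edgeR); GAR1 had one of 0.02. Of 17 assembly and trimming factors, 0 were called by edgeR or DESeq2 and 1 lower by limma-voom, with 1 higher and 1 lower at an unadjusted p under 0.05. The assembly helicase RUVBL1 had a log2 fold change of -0.13 (adjusted p = 0.0590, edgeR) and the exosome nuclease gene DIS3 one of 0.11 (adjusted p = 0.186, edgeR).

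Decay factors and their targets came next, again beside 9.23% of all tested genes higher and 9.43% lower at an unadjusted p under 0.05 (edgeR). Of 22 genes of nonsense-mediated decay and the exon junction, 0 were called by edgeR, DESeq2 or limma-voom, with 1 higher at an unadjusted p under 0.05. SMG1, the kinase that phosphorylates UPF1, had a log2 fold change of 0.14 (adjusted p = 0.178, edgeR) and the exonuclease gene XRN1 one of 0.09. Of 6 protein-coding targets of the pathway, 0 were called by the same tools, with 1 higher and 2 lower at an unadjusted p under 0.05. GADD45A, a stress-induced target, had a log2 fold change of -0.34 ± 0.11 (SE; adjusted p = 0.0667, edgeR), and GADD45B one of 0.16 (adjusted p = 0.229, edgeR). Of all tested genes, 2.93% were called higher and 3.51% lower by edgeR, so 20 genes would hold few calls or none. Among 20 tested translation genes with a TOP start, 1 was lower and none higher, with a median of -0.004. It was TPT1, itself a snoRNA host, at 934 ± 8.43 CPM in PIG-EMPTY and 841 ± 36.5 CPM in PIG-LONA (SD, n = 2 each; adjusted p = 0.0100, edgeR). Its adjusted p (edgeR) was 0.231 without replicate 1 of PIG-EMPTY and 0.173 without replicate 2. EEF1G was listed at 0 in all 4 libraries and was not tested.

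**Figure D5:**
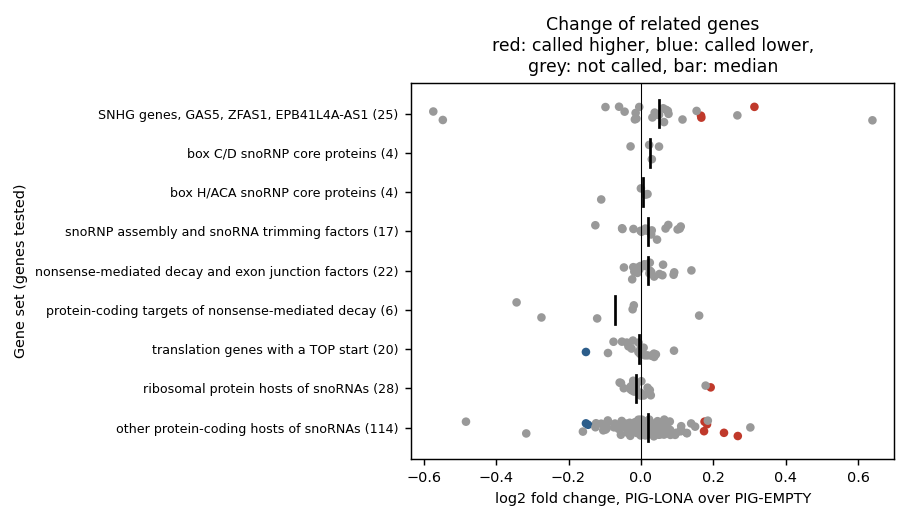
Log2 fold change (PIG-LONA over PIG-EMPTY) of every tested gene in the SNHG group and in each list of related genes, with red for called higher, blue for called lower, grey for not called and a black bar for the median. Medians of all classes lie close to 0, from -0.07 for the targets of nonsense-mediated decay to 0.05 for the SNHG group.

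Mature snoRNAs carry no poly(A) tail, and their own rows held few reads. Of 135 snoRNA rows inside the hosts, 12 held any count, and these summed to 382 and 391 counts in PIG-EMPTY against 386 and 432 in PIG-LONA. Of the 40 rows lying within an annotated exon of the host, 0 held a count, against 11 of the 90 in introns. A row within a host exon shares all its bases with the host on the same strand. Its reads may not be told from those of the host, so a 0 there does not show the level of the snoRNA. SNORD48, SNORD52 and SNORD50B, printed above, were at 0, so no level of the chromosome 6 snoRNAs was available. SNORD104 held 108 and 118 counts in PIG-EMPTY against 121 and 113 in PIG-LONA, more than its host SNHG25. SNORA73B, in SNHG3, held 156, 133, 150 and 144 counts in the same order. Neither row separated the groups.

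Several hosts share exon sequence with another gene, and the strand setting of the counting is not given in the sources used here, so their values are uncertain. On the same strand, SNHG3 shares 242 bases with RCC1, SNHG20 shares 460 with SEC14L1 and SNHG4 shares 626 with MATR3. SNHG21 shares 768 of its 1053 exon bases with ENSG00000252690, also on its own strand. That row held 88 and 122 counts in PIG-EMPTY against 83 and 148 in PIG-LONA, more than SNHG21 in every library. SNHG16 shares 1639 bases with ENSG00000284526 on the opposite strand, a row of 11 to 19 counts a library. On the opposite strand, SNHG29 shares 452 bases with LRRC75A, ZFAS1 shares 249 with ZNFX1, SNHG7 shares 1094 with DIPK1B, SNHG10 shares 391 with GLRX5 and EPB41L4A-AS1 shares 1659 with EPB41L4A. Apart from the rows of snoRNAs, SNHG32 shares 418 bases with a row on its own strand that held 0 counts. SNHG5 shares none with any gene in the annotation used other than a snoRNA. SNORD52 lies within an annotated exon of SNHG32, and SNORD50B within one of SNHG5.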

How the data were processed

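Gene expression of the 4 poly(A) libraries was read from one table of raw read counts per Ensembl gene, as deposited by the authors, with 1 column per library. The kit was NEBNext Ultra II Directional, per the labels' protocols. The submitters' processing notes name hg38 as the build, with FastQC 0.11.4, STAR 2.5 and HTSeq as tools. What strand setting and annotation release were used is not given in the sources used here.

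Of 67062 rows, 60402 had a symbol, and rows without one held 0.0723% of counts. Positions, exon lengths and snoRNAs came from GENCODE 29 (GRCh38), with RefSeq bounds added for snoRNAs, and start sequences from RefSeq (GRCh38.p14).

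All genes kept by filterByExpr (minimum count 10, minimum total 15; 15918 genes) were fitted with edgeR 4.0.16 in R 4.3.3 (TMM, glmQLFit, glmQLFTest, a two-sided test of the group term). P-values were adjusted by Benjamini-Hochberg over all of them, and the threshold was 0.05. The SE is the log2 fold change divided by the square root of F. DESeq2 1.42.0, limma-voom (limma 3.58.1), other scalings and filters, a replicate block, each library left out in turn, and removal of the chromosome 6 median or of its genes were the alternatives. Total counts ran from 29819572 to 38358442, and the biological coefficient of variation was 2.95%. Chi-square per gene was 1.81 between PIG-EMPTY and 4.67 between PIG-LONA replicates, so all 4 were kept as separate samples.

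All members were named; lists gave up to 4 called genes with the smallest p, or 2 as values where none was called, and each called host its nearest tested neighbours and overlapping genes. POLA1, UBAP2, TMEM167A, HSPA1A and EEF1G, and the genes that share exons with hosts that were not called, were named outside this rule. The members and lists were chosen with earlier results of these data known. On counts simulated for this comparison (15673 genes tested), the fit called 30% of the genes with a true 1.2-fold change, 64% at 1.5-fold, 79.6% at 2-fold and 98.0% at 4-fold, with 4 false calls. The simulation used the same dispersion trend for both groups and no shift of a whole chromosome. Its rates may therefore not hold for these data, where the PIG-LONA replicates differed more than the PIG-EMPTY replicates.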

Additional observations from a re-analysis of the deposited data

How the results depend on the processing

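The count of hosts called higher, 3 in edgeR with TMM, was 1 (SNHG32) with the DESeq2 Wald test and 1 (SNHG32) with no low-count filter, 2 with library totals, and 0 with the chromosome 6 median removed or with chromosome 6 genes left out of the fit. Which hosts were called changed with the library left out, as did the number of all genes called. Each of these fits leaves 1 library in a group, so their counts of called hosts are not compared. SNHG32 stayed past the threshold under every alternative run on it except removal of the chromosome 6 median (0.14, adjusted p = 0.250, edgeR). SNHG5 was not past it with the DESeq2 Wald test (adjusted p = 0.0560) or with no filter (adjusted p = 0.103, edgeR), and SNHG6 lost its call with library totals (adjusted p = 0.0659, edgeR), the DESeq2 Wald test (adjusted p = 0.146), no filter (adjusted p = 0.215), the chromosome 6 median removed (adjusted p = 0.0515) and without chromosome 6 genes (adjusted p = 0.0505); in the last 2 settings its log2 fold change was 0.17, as in the fit of all genes. Without PIG-LONA replicate 2, SNHG29 (adjusted p = 0.00325, edgeR) and SNHG3 (adjusted p = 0.00728, edgeR) were also called higher. SNHG14, under the filter with all 4 libraries, was called lower in 3 of the fits with a library left out. With the chromosome 6 median removed, SNHG5 stood 0.05 below the median of hosts elsewhere (a difference of -0.0516), with a log2 fold change of -0.0057, and SNHG32 stood 0.0937 above it. SNHG7, close to 0, was 0.0039 with no filter and 0.0012 without chromosome 6 genes, and ran from -0.0392 to 0.0325 with a library left out.

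Direction also turned, with no call of the turned value, on leaving out a library for EPB41L4A-AS1 (-0.100 to 0.0803), SNHG8 (-0.0890 to 0.0598), SNHG20 (-0.0661 to 0.0443), SNHG30 (-0.114 to 0.232), SNHG10 (-0.144 to 0.0380), SNHG3 (-0.0438 to 0.137) and SNHG21 (-0.0238 to 1.198). Among genes of the related lists, 0 were higher in edgeR and 1 with limma-voom, and 1 was lower against 2 with limma-voom, 0 with no filter and 2 with a CPM filter. With a library left out these counts ran from 0 to 5 higher and from 0 to 6 lower. The replicate numbers do not pair the libraries (correlation of deviations 0.0846); with a replicate block 3 hosts were called higher, the count without it. Over all genes, 1025 were called in edgeR, 473 with DESeq2, 334 with no filter and 466 to 2331 with a library left out. The cause of a lost call was not tested. In 2 of the settings the median or the genes of the chromosome of SNHG5 and SNHG32 are taken out by design. With 2 libraries a group, small changes and hosts under 100 counts are at the limit of what these data resolve.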
